A study of Mus musculus with 6 samples.

Results

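The genes described here are 33 enzymes and carriers of glycolysis, the pentose phosphate pathway and the tricarboxylic acid (TCA) cycle, chosen by gene symbol from the 26332 genes of the count table. All 33 were found in the table and all 33 passed the filter on low counts, so all were tested. RNA-seq counts came from thymic natural killer (NK) cells, cytotoxic lymphocytes of the innate immune system, with 1 C57BL/6 mouse behind each library. Sorted cells bound antibodies to NK1.1 and NKp46 and lacked TCRbeta, CD3, CD8 and binding of CD1d tetramer. There were 4 wild-type (WT) libraries and 2 libraries from mice with a knockout (KO) of Tcf7, the gene of the transcription factor TCF1. By label, the male libraries are WT 1, WT 3 and KO 1, and the female ones WT 2, WT 4 and KO 2. The labels give neither the age of the mice nor the design of the knockout allele.

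Glycolysis splits glucose into pyruvate in the cytosol and yields ATP quickly, and lactate dehydrogenase turns pyruvate into lactate that leaves the cell. The pentose phosphate pathway branches off after glucose uptake and supplies NADPH and ribose for nucleotides. In the mitochondrion, pyruvate dehydrogenase feeds the TCA cycle, whose electrons drive respiration. Resting NK cells are known to rely on a modest mitochondrial metabolism, and activated or dividing NK cells raise glucose uptake and glycolysis.

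Total counts ranged from 16418910 to 31155303 per library, and Tcf7 was lower in both KO libraries (268 and 452 CPM, counts scaled by library size and TMM factors) than in WT (811 to 947 CPM). Its log2 fold change was -1.35 (adjusted p = 0.00294, edgeR), and its transcript was still counted in the KO libraries. The 12 NK markers summed to 15010 to 15690 CPM in WT, 14856 in KO 1 and 12505 in KO 2. Of these, 2 were lower, none higher and none at 0. The 2 were Eomes (800 to 930 CPM in WT, 295 in KO 1 and 140 in KO 2) and Klrb1c (1555 to 1705 in WT, 1270 and 1084 in KO). A large part of the sum was Gzma, not called, with 2342 to 3413 CPM in WT, 4268 in KO 1 and 3195 in KO 2. The sum therefore says little about the other NK markers. The 2 thymic NK markers gave 367 to 620 CPM in WT, 410 and 574 in KO, and none was called. Markers of several other cell types were higher in KO. For comparison with the marker counts in this paragraph, 8.13% of all tested genes were called higher and 5.58% lower. The 15 alpha-beta T cell markers summed to 710 to 1043 CPM in WT, 2005 in KO 1 and 2380 in KO 2 (6 higher, 1 lower). The 5 immature thymocyte markers summed to 12.3 to 121 CPM in WT, 37.8 in KO 1 and 516 in KO 2 (2 higher). The 6 gamma-delta T cell markers gave 232 to 385 CPM in WT, 676 and 496 in KO (3 higher), the 10 B cell markers 397 to 441, 609 and 445 (7 higher), and the 12 myeloid markers 325 to 500, 521 and 521 (2 higher). Most of the B cell sum was Ighm (359 to 406 CPM in WT, 357 and 365 in KO). Most of the myeloid sum was Itgam (319 to 368 in WT, 347 and 280 in KO). Neither gene was called, so these 2 sums say little about the other markers of their lists. The 11 markers of stroma and epithelium gave 111 to 120 CPM in WT, 272 in KO 1 and 451 in KO 2, with 4 of 6 tested higher and Foxn1, Psmb11 and Col3a1 at 0 in WT. Most of this sum was Pecam1 alone (103 to 113 CPM in WT, 245 in KO 1 and 402 in KO 2). The 4 tested erythroid markers gave 19.2 to 55.7 CPM in WT, 0.232 in KO 1 and 29.2 in KO 2, with KO 1 the lowest library and none called. The 16 cell division genes summed to 985 to 1231 CPM in WT, 2443 in KO 1 and 1680 in KO 2 (10 higher). The 9 immediate early genes summed to 830 to 5412 CPM in WT, highest in WT 3 and WT 4, and to 496 and 571 CPM in KO (1 lower). The part of any of these in the results that follow was not tested. In bulk libraries, fewer cells of a type and less RNA per cell cannot be told apart.

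How far a count can be assigned to a member depends on its copies in the genome, since several glycolytic genes have left processed copies, inserted from spliced messenger RNA. The transcript of each member was therefore read as words of 75 bases and compared with the GENCODE transcripts of all other genes. No word was shared for 17 of 33 members, under 10% of the words for 7 more, and 10 to 20% for 5. In 4 glycolytic enzyme genes the share was at least 40%: Pgam1 (40.6%), Eno1 (65.4%), Pgk1 (67.5%) and Gapdh (80.3%). Gapdh had 157 annotated pseudogene copies, Ldha 11, Eno1 and Pkm 5 each, Aldoa 4, Pgam1 3 and Pgk1 2, counting copies that cover at least 50% of the coding part at 90% identity or more. For Gapdh, Pgk1 and Pgam1 the whole coding part was shared, so in Pgk1 and Pgam1 the words of their own lay in the untranslated ends or across their borders. The following stretches of coding sequence, read from GENCODE transcripts of the GRCm38 build, are those held by the largest number of other genes.

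Gapdh: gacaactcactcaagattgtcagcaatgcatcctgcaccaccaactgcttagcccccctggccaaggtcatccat
Pgk1: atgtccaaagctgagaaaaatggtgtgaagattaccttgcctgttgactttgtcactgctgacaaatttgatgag
Pgam1: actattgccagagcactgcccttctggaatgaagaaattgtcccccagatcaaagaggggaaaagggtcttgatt
Eno1: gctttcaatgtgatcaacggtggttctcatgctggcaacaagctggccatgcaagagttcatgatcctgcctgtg

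The Gapdh stretch (coding bases 415 to 489) was found unaltered in 49 other genes, of which 47 are pseudogenes. The stretch of Pgk1 (bases 808 to 882) was in 3 pseudogenes, that of Pgam1 (bases 475 to 549) in 2 pseudogenes and that of Eno1 (bases 445 to 519) in 5 other genes. Of the pseudogene copies, only 8 of Gapdh, 1 of Ldha and 1 of Pdha1 had a row in the count table. No source used here says how reads with several matches were counted, so the counts of Gapdh, Pgk1, Pgam1 and Eno1 are uncertain. The kit does not mark strand, so antisense and overlapping transcripts cannot be told apart from a member either.

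**Figure D1:**
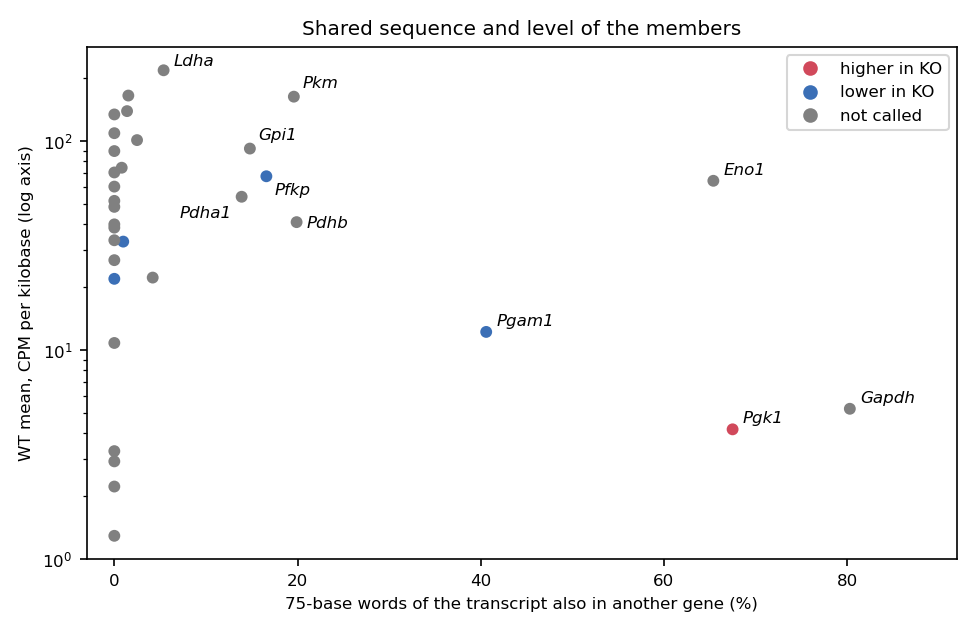
Share of each member's 75-base words that also occur in another gene (x axis, percent) against its mean level in WT (y axis, CPM per kilobase, log axis), 1 point per member, coloured by the call in KO. Gapdh and Pgk1, with 80.3% and 67.5% shared words, stand at 5.23 and 4.17 CPM per kilobase, while Eno1 with 65.4% stands at 64.5.

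Members were ranked by their level per length of gene. Apart from those 4 uncertain genes, in WT the highest members were Ldha, the muscle-type lactate dehydrogenase chain, at 218 CPM per kilobase, Aldoa (aldolase) at 165 and Pkm (pyruvate kinase) at 163. Taldo1 (transaldolase) led the pentose phosphate genes with 139 CPM per kilobase, and Mdh2 (mitochondrial malate dehydrogenase) led the TCA cycle genes with 134. The lowest were Hk2, Idh1 and Pfkm with 1.29, 2.22 and 2.93 CPM per kilobase. Gapdh, the glyceraldehyde-3-phosphate dehydrogenase gene, was counted at 5.23 CPM per kilobase. It had 4.94, 4.02, 10.5 and 6.30 CPM in WT 1 to WT 4, 5.45 in KO 1 and 2.97 in KO 2. With the counts of its 8 tabulated copies added, it had 7.29 to 14.6 CPM in WT, 11.8 in KO 1 and 7.02 in KO 2.

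**Figure D2:**
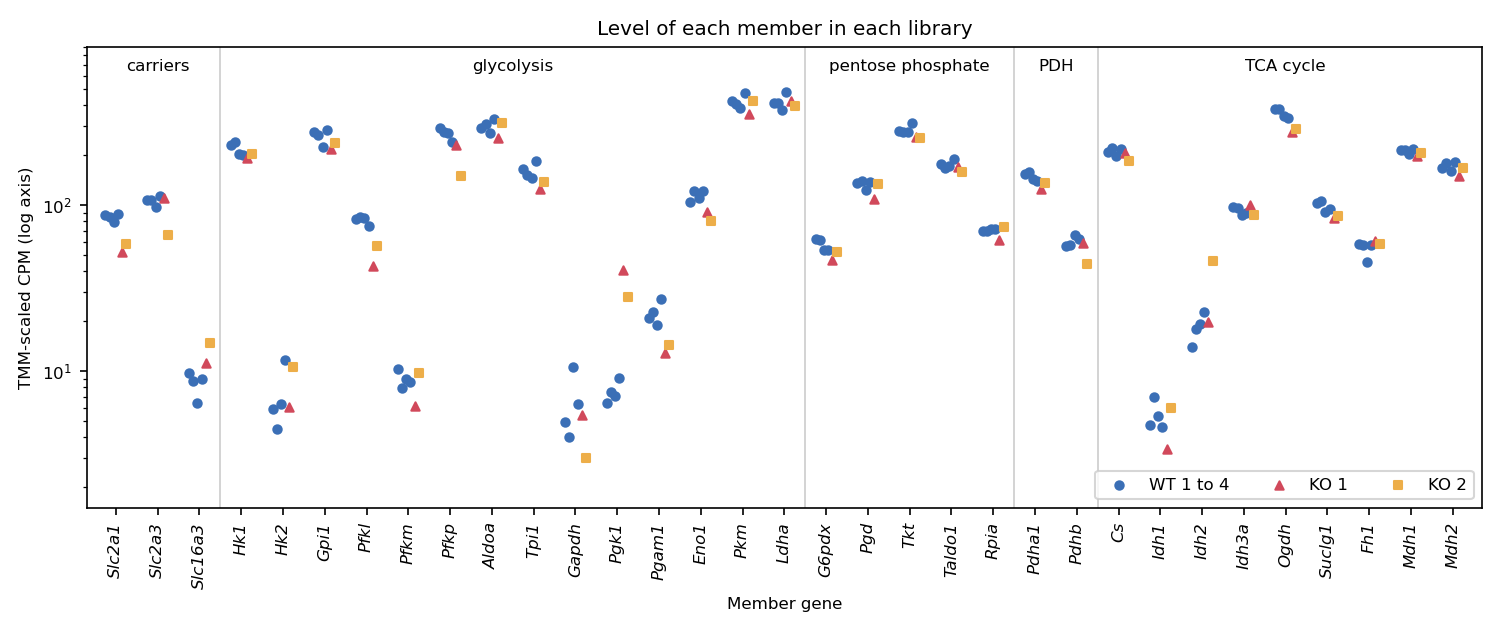
Level of each of the 33 members in each library (y axis, TMM-scaled CPM, log axis), with WT 1 to WT 4 as circles, KO 1 as triangles and KO 2 as squares, grouped by pathway. For most members the 6 libraries lie close together; Pgk1 in KO (40.5 and 28.0 CPM) stands above WT (6.44 to 9.08), and Idh2 stands apart in KO 2 (46.1 CPM).

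Most members were not called between the genotypes. In the test of KO against WT (edgeR quasi-likelihood with sex as a term, adjusted over 13652 genes), 1 of 33 members rose (Pgk1) and 4 fell (Slc2a1, Pfkl, Pfkp and Pgam1), and 28 were not called. These 5 members make 15.2% of 33, and 13.7% of all tested genes were called, so the share called was near the background. Over all genes 8.13% were called higher and 5.58% lower. The 5 called members belong to glucose uptake and glycolysis, and edgeR called no pentose phosphate, pyruvate dehydrogenase or TCA cycle gene. DESeq2 and limma voom did call Ogdh and Idh2 of the TCA cycle group, and Ogdh just missed the call in edgeR (adjusted p = 0.0587). The pathway groups are small, and a difference between them was not tested. The fold changes were nevertheless below 0 for 27 of 33 members (81.8%), against 48.3% of all tested genes. Their median log2 fold change was -0.16 and that of all tested genes 0.02. With scaling by library size alone the medians were -0.08 and 0.10, so the members stood below the median gene by the same distance. Both KO libraries lay below all WT libraries for 11 members and above them for 3, where 18.8% and 20.5% of all tested genes did so (14 members outside the WT range in all, against 39.3%). At an unadjusted p under 0.05 were 10 of 33 members and 29.3% of all genes. DESeq2 called 8 members (21.6% of all genes), limma voom also 8 (17.7%), and edgeR without a filter 8 (13.8%). With WT 1 left out 3 members were called (7.38% of all genes), with WT 2 left out 3 (9.76%), with WT 3 left out 2 (7.55%) and with WT 4 left out 6 (14.1%). Leaving out KO 1 gave 4 (7.04%) and leaving out KO 2 gave 2 (6.63%). As a share of all counts, the 33 members took 0.460%, 0.461%, 0.437% and 0.473% in WT 1 to WT 4, and 0.432% and 0.431% in KO 1 and KO 2. Both KO shares lay below the lowest WT share. The glycolysis genes took 0.213 to 0.239% in WT and 0.211 and 0.212% in KO, the pentose phosphate genes 0.0698 to 0.0746%, 0.0679% and 0.0692%, and the TCA cycle genes, which overlapped, 0.115 to 0.125%, 0.116% and 0.116%. These shares are of raw library totals. With TMM-scaled totals the TCA cycle genes no longer overlapped (0.115 to 0.128% in WT, 0.110% and 0.113% in KO), and all 33 members took 0.437 to 0.486% in WT, 0.411% in KO 1 and 0.420% in KO 2.

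**Figure D3:**
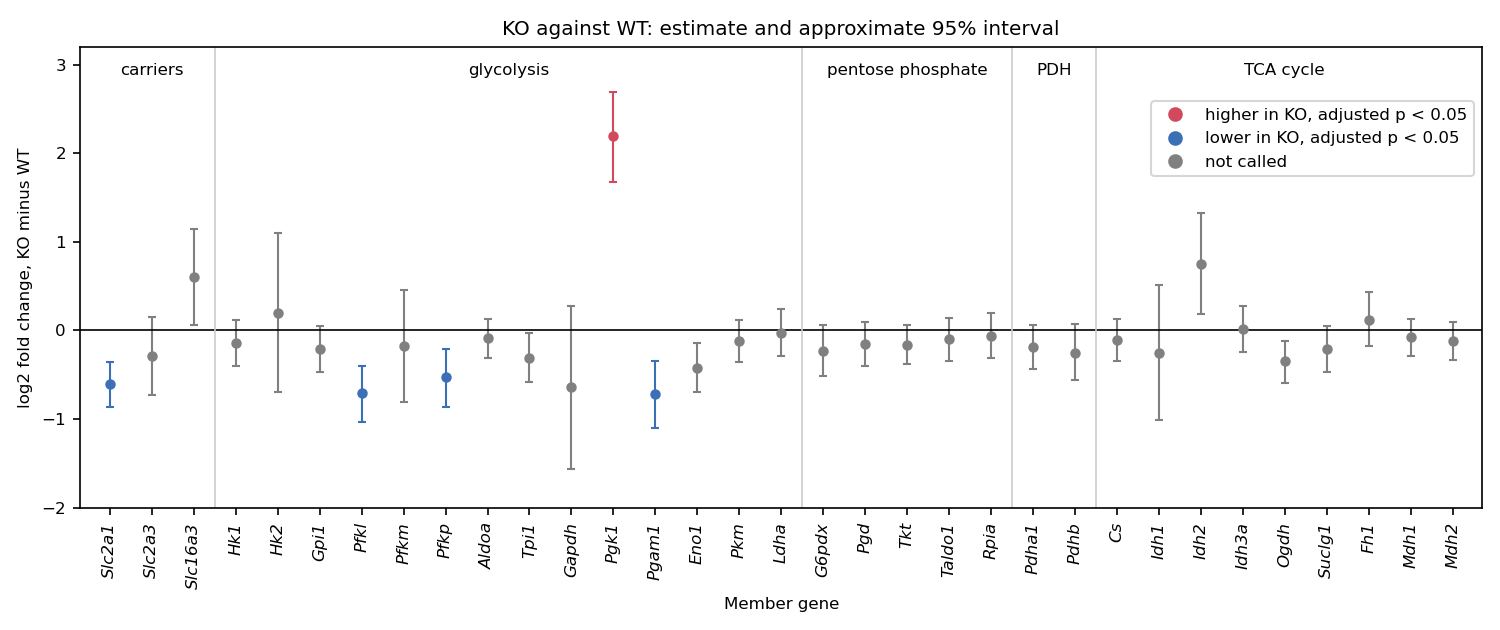
Log2 fold change of each member, KO minus WT (y axis), with its approximate 95% interval, grouped by pathway. Pgk1 stands alone at 2.19; Slc2a1, Pfkl, Pfkp and Pgam1 lie between -0.72 and -0.53, and most intervals of the other members include 0.

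Slc2a1, which encodes the main glucose carrier of lymphocytes, was lower in KO. It had 87.8, 84.9, 78.9 and 88.1 CPM in WT 1 to WT 4, with lower values of 52.5 in KO 1 and 58.6 in KO 2. The 2 groups did not overlap, and each was narrow. The gene (GRCm38, as for the other positions here, chromosome 4, 119108745 to 119137330) fell by 0.61 on the log2 scale (SE 0.11, adjusted p = 0.0110, edgeR), to 0.654 of its WT level. With 1 KO library left out, the fold change was nearly the same and the call just missed the threshold (adjusted p = 0.0759 without KO 1 and 0.0505 without KO 2). Slc2a3, another glucose carrier of high affinity, had 98.1 to 114 CPM in WT and 111 in KO 1 but 66.5 in KO 2. The KO libraries thus disagreed, the log2 fold change was -0.29 (95% interval -0.73 to 0.15), and it was not called (adjusted p = 0.352, edgeR). Without KO 1 its log2 fold change was -0.74 and it was called (adjusted p = 0.0333). Slc16a3, a lactate exporter, had 6.42 to 9.68 CPM in WT, 11.1 in KO 1 and 14.8 in KO 2, both above WT, with a log2 fold change of 0.60 that was not called (adjusted p = 0.131).

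Hexokinase traps glucose in the cell, and the level of its gene Hk1 overlapped between groups, with 202 to 239 CPM in WT, 193 in KO 1 and 203 in KO 2. Hk2, the inducible isozyme, was low throughout, at 4.45 to 11.6 CPM in WT, 6.09 in KO 1 and 10.5 in KO 2. Gpi1, the glucose-6-phosphate isomerase gene, had 224 to 286 CPM in WT, 217 in KO 1 and 237 in KO 2. None of the 3 was called, and the 95% interval of the log2 fold change was -0.40 to 0.12 for Hk1 and -0.47 to 0.05 for Gpi1.

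Phosphofructokinase commits sugar to glycolysis and is built from liver (Pfkl), muscle (Pfkm) and platelet (Pfkp) chains. Pfkl had 82.3, 84.9, 83.7 and 75.1 CPM in WT 1 to WT 4, and 43.1 and 56.6 CPM in KO 1 and KO 2. Both KO values were far below the narrow WT range, and KO 1 was the lower. Pfkl (chromosome 10, 77986947 to 78009807) fell by 0.71 on the log2 scale (SE 0.14, adjusted p = 0.0154, edgeR). It was not called without WT 3 (adjusted p = 0.0576) or without KO 1 (0.110). Pfkp, the most expressed chain, had 292, 277, 271 and 240 CPM in WT, 230 in KO 1 and 150 in KO 2. KO 1 lay just under the lowest WT library, and most of the difference came from KO 2. Pfkp (chromosome 13, 6579874 to 6649060) fell by 0.53 (SE 0.14, adjusted p = 0.0447, edgeR), and the call was close to the threshold. It was lost with upper-quartile scaling (adjusted p = 0.0516), with library-size scaling (0.0750) and without the sex term (0.0914). Without WT 1, WT 2, WT 3 or KO 2 it was lost as well (adjusted p = 0.107, 0.0777, 0.0741 and 0.272). Omitting KO 2 moved its fold change to -0.30, and omitting KO 1 to -0.80. Pfkm was low, at 7.88 to 10.3 CPM in WT, 6.14 in KO 1 and 9.69 in KO 2, and was not called.

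Per kilobase, Pfkp made up 72.3 to 74.2% of the counts of the 3 phosphofructokinase genes in WT, 80.9% in KO 1 and 67.1% in KO 2. The KO libraries therefore lay on opposite sides of a tight WT range. Slc2a1 held 54.4 to 55.9% of the counts of the Slc2a1 and Slc2a3 pair in WT, 42.1% in KO 1 and 57.6% in KO 2, again on both sides of WT. Hk1 held 95.5 to 98.5% of the hexokinase pair in WT and 97.5 and 95.9% in KO. Ldha held 98.9 to 99.7% of the lactate dehydrogenase pair in WT, 99.5% in KO 1 and 95.8% in KO 2. Mdh1, the cytosolic malate dehydrogenase gene, held 44.1 to 45.7% of the malate dehydrogenase pair in WT and 46.5 and 44.6% in KO. Idh1 held 12.4 to 21.3% of the Idh1 and Idh2 pair in WT and 10.7 and 8.31% in KO, the only pair whose groups did not overlap. No test was made of these shares.

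**Figure D4:**
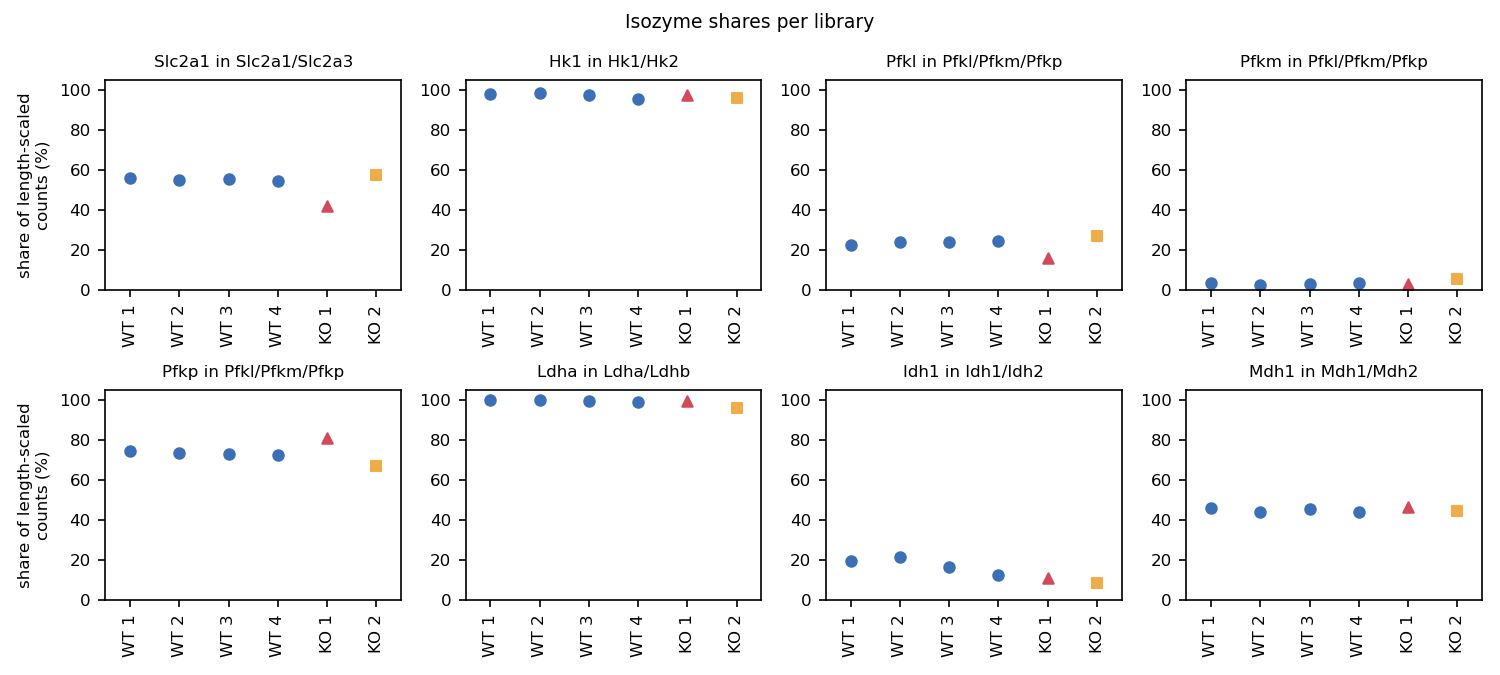
Share of the named gene in the length-scaled counts of its isozyme set (y axis, percent, from 0) in each of the 6 libraries, WT as circles, KO 1 as a triangle and KO 2 as a square. For Slc2a1, Pfkl and Pfkp the WT libraries lie close together, and KO 1 and KO 2 fall on opposite sides of them.

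In the lower part of glycolysis, Pgk1 was the member with the largest difference. Pgk1 encodes phosphoglycerate kinase, which makes the first ATP of the pathway. It had 6.44, 7.42, 7.08 and 9.08 CPM in WT 1 to WT 4, 40.5 CPM in KO 1 and 28.0 CPM in KO 2. Both KO values lay far above the narrow WT range. The gene (chromosome X, 106187100 to 106203699) rose by 2.19 on the log2 scale (SE 0.22, adjusted p = 0.00124, edgeR), to 4.55 times its WT level. It was called under all 16 alternatives, with log2 fold changes of 1.76 to 2.58. Its level in WT, 4.17 CPM per kilobase, was low among the 33 members. Its coding words were all shared and neither of its copies had a row in the table, so what rose was the count assigned to Pgk1. Selection cassettes of knockout alleles often carry Pgk1 sequence. The labels do not describe this allele, and whether sequence from it adds to the Pgk1 count in KO was not tested. A rise of the gene itself and counts from the allele therefore cannot be told apart here.

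Pgam1, the phosphoglycerate mutase gene, moved the other way. It had 21.0, 22.8, 19.0 and 27.0 CPM in WT, 12.8 in KO 1 and 14.3 in KO 2, so the KO libraries agreed and lay below WT. Pgam1 (chromosome 19, 41911871 to 41918665) fell by 0.72 (SE 0.16, adjusted p = 0.0275, edgeR). The call was lost without WT 1, WT 2, WT 3, KO 1 or KO 2 (adjusted p = 0.0827, 0.0559, 0.0616, 0.0779 and 0.125) and without WT 3 and WT 4 together (0.106), while the fold change stayed between -0.80 and -0.64. Eno1, which encodes enolase, had 104 to 121 CPM in WT, 91.3 in KO 1 and 80.0 in KO 2, with a log2 fold change of -0.42 that just missed the call (adjusted p = 0.0583, edgeR). DESeq2 and limma voom called Eno1 (adjusted p = 0.00929 and 0.0337). Tpi1, the triosephosphate isomerase gene, had 146 to 184 CPM in WT, 125 in KO 1 and 138 in KO 2 (log2 fold change -0.31, adjusted p = 0.133). Gapdh was not called (log2 fold change -0.64, adjusted p = 0.326). With its copies added, which was tried only after the values were seen, it was at -0.15 (0.817).

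The most expressed glycolytic genes overlapped between genotypes. Ldha had 412, 413, 374 and 482 CPM in WT 1 to WT 4, 427 in KO 1 and 397 in KO 2. Its log2 fold change was -0.03 (SE 0.11, 95% interval -0.29 to 0.24, adjusted p = 0.909, edgeR). Pkm had 385 to 475 CPM in WT, 356 in KO 1 and 428 in KO 2, with an interval of -0.36 to 0.12. Aldoa had 274 to 330 CPM in WT, 253 in KO 1 and 315 in KO 2, with an interval of -0.31 to 0.13. For these 3 genes a shift as large as that of Pfkl or Pgam1 thus lies outside the interval.

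For each called member RefSeq (GRCm38.p6) holds a promoter window, set by an annotated start, of which the 250 bases upstream are printed here because these are the members that were called. The Pfkp window lies just inside the upstream end of the gene span given above, and the other 4 windows adjoin the end of theirs. Capitals mark the core letters bound by hypoxia-inducible factors (HIF), ACGTG or GCGTG, and those bound by TCF proteins, CTTTGA or CTTTGT, on either strand.

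Slc2a1 (chr4:119108495-119108744, + strand): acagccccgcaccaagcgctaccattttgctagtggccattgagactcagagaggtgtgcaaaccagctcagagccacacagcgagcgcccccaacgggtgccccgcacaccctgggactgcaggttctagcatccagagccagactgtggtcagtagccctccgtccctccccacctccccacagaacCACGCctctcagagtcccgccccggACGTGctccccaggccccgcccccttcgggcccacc
Pfkl (chr10:78009808-78010057, - strand): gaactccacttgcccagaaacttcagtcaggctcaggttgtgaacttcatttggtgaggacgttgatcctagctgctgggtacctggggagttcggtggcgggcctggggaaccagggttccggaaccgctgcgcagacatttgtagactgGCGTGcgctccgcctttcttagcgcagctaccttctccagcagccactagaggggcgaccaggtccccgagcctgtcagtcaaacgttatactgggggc
Pfkp (chr13:6648772-6649021, - strand): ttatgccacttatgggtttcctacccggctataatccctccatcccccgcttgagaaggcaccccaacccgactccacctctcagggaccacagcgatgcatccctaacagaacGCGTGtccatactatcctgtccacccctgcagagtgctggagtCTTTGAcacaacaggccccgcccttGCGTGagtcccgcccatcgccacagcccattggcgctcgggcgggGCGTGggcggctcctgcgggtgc
Pgk1 (chrX:106186850-106187099, + strand): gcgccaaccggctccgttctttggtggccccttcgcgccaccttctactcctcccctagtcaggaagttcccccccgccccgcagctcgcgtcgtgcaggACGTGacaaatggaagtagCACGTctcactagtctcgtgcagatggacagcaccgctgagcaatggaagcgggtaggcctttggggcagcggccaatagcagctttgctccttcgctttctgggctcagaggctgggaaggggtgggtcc
Pgam1 (chr19:41911621-41911870, + strand): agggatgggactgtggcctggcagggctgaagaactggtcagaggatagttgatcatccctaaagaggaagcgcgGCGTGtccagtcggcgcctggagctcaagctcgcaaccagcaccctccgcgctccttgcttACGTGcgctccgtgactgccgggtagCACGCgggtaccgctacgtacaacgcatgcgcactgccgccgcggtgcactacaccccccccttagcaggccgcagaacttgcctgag

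HIF letters were found in all 5 windows, and in 28 of 31 members with a window (90.3%), while 41.5% of all genes had them in such a window. For the shares of genes in this paragraph, a gene counted if any of its windows matched. The 31 members had 48 windows and all 27025 genes had 32851, so members had more windows per gene. All genes here include those that were not tested for expression. Slc2a1 and Pgk1 had 2 matches each, Pfkp and Pgam1 3 each, and Pfkl 1. TCF letters were found in the Pfkp window alone of the 5, in 11 of 31 members (35.5%) and in 30.8% of all genes. The E-box CACGTG, which contains the HIF letters ACGTG, was in none of the 5 windows, in 9.68% of the members and in 6.86% of all genes. The GC box GGGCGG was in 77.4% of the members and in 35.4% of all genes. The 5 windows hold 59.2 to 66.4% G and C. A match of letters is a description and not a binding site, and no part of these letters in the called differences was tested.

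Of the 5 pentose phosphate genes, none was called. Taldo1 had 177, 167, 173 and 191 CPM in WT, 171 in KO 1 and 159 in KO 2 (log2 fold change -0.10, SE 0.10, adjusted p = 0.557, edgeR). G6pdx, the gene of the entry enzyme glucose-6-phosphate dehydrogenase, had the largest difference of the group. It had 62.9, 61.8, 53.6 and 53.8 CPM in WT, 46.9 in KO 1 and 52.0 in KO 2, both just under WT (-0.23, SE 0.12, adjusted p = 0.265). Tkt (transketolase) had 277 to 313 CPM in WT, 258 in KO 1 and 256 in KO 2. Pgd, the phosphogluconate dehydrogenase gene, had 124 to 140 CPM in WT, 109 in KO 1 and 134 in KO 2, and Rpia, the ribose-phosphate isomerase gene, 69.5 to 71.6 in WT, 61.9 and 74.3 in KO. All 5 fold changes were below 0, with a median of -0.15. At an unadjusted p under 0.05, as at the adjusted one in edgeR, 0 of 5 passed, and DESeq2 and limma voom called none either. Of all tested genes, 29.3% had an unadjusted p under 0.05.

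Pyruvate dehydrogenase was represented by its alpha chain gene Pdha1 and its beta chain gene Pdhb. Pdha1 had 155, 158, 144 and 140 CPM in WT, 125 in KO 1 and 137 in KO 2 (log2 fold change -0.19, SE 0.11, adjusted p = 0.279, edgeR). Pdhb had 57.0, 57.2, 66.0 and 62.7 CPM in WT, 59.0 in KO 1 and 44.1 in KO 2 (-0.25, SE 0.13, adjusted p = 0.268). For Pdhb only KO 2 lay outside the WT range.

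Of the 9 genes of the TCA cycle and its related dehydrogenases, none was called by edgeR and 2 had an unadjusted p under 0.05. DESeq2 and limma voom called these 2, Ogdh and Idh2. Over all tested genes, 29.3% had an unadjusted p under 0.05 in edgeR, and DESeq2 called 21.6% and limma voom 17.7%. These counts are thus no sign of a difference particular to the group. Ogdh encodes a subunit of the oxoglutarate dehydrogenase complex. It had 382, 383, 343 and 337 CPM in WT, 278 in KO 1 and 288 in KO 2. The log2 difference was -0.35 (SE 0.10, adjusted p = 0.0587, edgeR). The groups did not overlap, and adjusted p was 0.00605 with DESeq2 and 0.0401 with limma voom. Idh2, the mitochondrial NADP-dependent isocitrate dehydrogenase gene, had 13.9, 18.0, 19.1 and 22.6 CPM in WT, 19.6 in KO 1 and 46.1 in KO 2. Only KO 2 lay above WT. The log2 fold change was 0.75 (SE 0.24, adjusted p = 0.0836, edgeR), and it was 1.18 without KO 1, where it was called (adjusted p = 0.0364), and 0.25 without KO 2. The markers of immature thymocytes (516 CPM), alpha-beta T cells (2380 CPM) and stroma and epithelium (451 CPM) were also highest in KO 2. Their part in the Idh2 level was not tested.

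The remaining TCA cycle genes had fold changes nearer to 0. Mdh2 had 168, 179, 161 and 181 CPM in WT, 150 in KO 1 and 168 in KO 2 (log2 fold change -0.12, SE 0.09, adjusted p = 0.446, edgeR). Cs, the citrate synthase gene, had 197 to 220 CPM in WT, 206 in KO 1 and 184 in KO 2. Idh3a, a chain of the NAD-dependent isocitrate dehydrogenase, had 87.3 to 97.8 CPM in WT, 100 in KO 1 and 87.8 in KO 2. Suclg1 (succinate-CoA ligase) had 90.5 to 106 CPM in WT, 84.0 and 86.5 in KO, and Fh1 (fumarase) 45.5 to 58.0 in WT, 60.6 and 58.2 in KO. For both genes the KO libraries lay just outside the WT range, below it for Suclg1 and above it for Fh1. Mdh1 had 205 to 218 CPM in WT, 198 in KO 1 and 206 in KO 2, and Idh1 was low, at 4.60 to 6.99 CPM in WT, 3.36 and 5.98 in KO.

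A wider list of 72 other genes of these pathways held 59 that passed the filter. Of these, 2 rose and 3 fell in KO (8.47%, against 13.7% of all tested genes), and the median log2 fold change was -0.11. The largest difference was that of Pygl, a glycogen phosphorylase gene. It had 7.97, 10.3, 9.24 and 8.60 CPM in WT, 47.7 in KO 1 and 78.1 in KO 2, without overlap. Pygl rose by 2.77 on the log2 scale (SE 0.17, adjusted p = 2.14e-04, edgeR). Its paralogue Pygb was not called, with 148 to 167 CPM in WT, 127 in KO 1 and 154 in KO 2.

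Of the kinases that switch off pyruvate dehydrogenase, Pdk1 and Pdk2 went opposite ways. Pdk3, at 29.7 to 43.4 CPM in WT, 37.2 in KO 1 and 35.3 in KO 2, was not called (log2 fold change -0.03, adjusted p = 0.931, edgeR). Pdk4 had a count of 0 in every library. Pdk1 rose from 46.6 to 53.4 CPM in WT to 63.9 in KO 1 and 71.7 in KO 2 (log2 fold change 0.47, adjusted p = 0.0349, edgeR). Pdk2 fell from 19.9 to 25.5 CPM in WT to 7.07 in KO 1 and 16.4 in KO 2 (-1.06, adjusted p = 0.0452). Pdk1 lost its call when any of the 6 libraries was left out (adjusted p 0.0574 to 0.219). Pdk2 lost it without WT 1, WT 2, WT 3 or KO 1 (0.0668 to 0.212), with library-size scaling (0.0562) and without the sex term (0.0738), and without KO 1 its fold change was -0.55, against -1.69 without KO 2. Acly, which makes cytosolic acetyl-CoA from citrate, had 479, 480, 466 and 462 CPM in WT, 368 in KO 1 and 362 in KO 2. It fell by 0.37 (SE 0.08, adjusted p = 0.0273), with tight groups far apart, yet the call was lost with library-size scaling (0.0558) and when any library but WT 4 was omitted (0.0723 to 0.121). Me2, a mitochondrial malic enzyme gene, had 217 to 256 CPM in WT, 183 in KO 1 and 137 in KO 2 (-0.57, adjusted p = 0.0359). Me2 lost its call with library-size scaling (0.0587) and on omitting WT 1, WT 2, WT 3 or KO 2 (0.0573 to 0.222), where KO 2 moved the fold change to -0.33.

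Ldhb, the heart-type lactate dehydrogenase chain, had 0.810, 0.956, 1.20 and 3.63 CPM in WT 1 to WT 4, 1.39 in KO 1 and 11.7 in KO 2. It was not called (log2 fold change 1.58, adjusted p = 0.158). WT 4 and KO 2 were also the libraries with the most immature thymocyte marker counts of their groups (121 and 516 CPM). The same held for the alpha-beta T cell markers (1043 and 2380 CPM), and the part of such cells in the Ldhb level was not tested. None of the 4 succinate dehydrogenase genes was called. Sdha had 278 to 299 CPM in WT, 250 in KO 1 and 296 in KO 2, and Sdhd 6.79 to 9.11 in WT, 6.61 and 7.80 in KO. Sdhb had 99.1 to 103 CPM in WT, 96.6 in KO 1 and 70.9 in KO 2 (log2 fold change -0.28, adjusted p = 0.203, edgeR). Sdhc had 92.2 to 107 CPM in WT, 73.9 in KO 1 and 84.0 in KO 2 (-0.30, adjusted p = 0.116). For Sdhb and Sdhc both KO libraries lay below all WT libraries.

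Sex as labelled was balanced in both groups and entered as a term of the fit. No member was called between libraries labelled male and female (0 of 33, and 0% of all tested genes, edgeR). At an unadjusted p under 0.05, 2 members and 6.34% of all genes passed. Because no tested gene was called, those of the sex chromosomes included, this term cannot show that sex has no effect. Whether the sex labels match the libraries was not tested. The interaction test of edgeR called no member for a KO difference that depended on labelled sex (0 of 33, and 0% of all genes). There, 3 members and 10% of all genes had an unadjusted p under 0.05. With 1 KO library of each sex, this test has little precision.

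**Figure D5:**
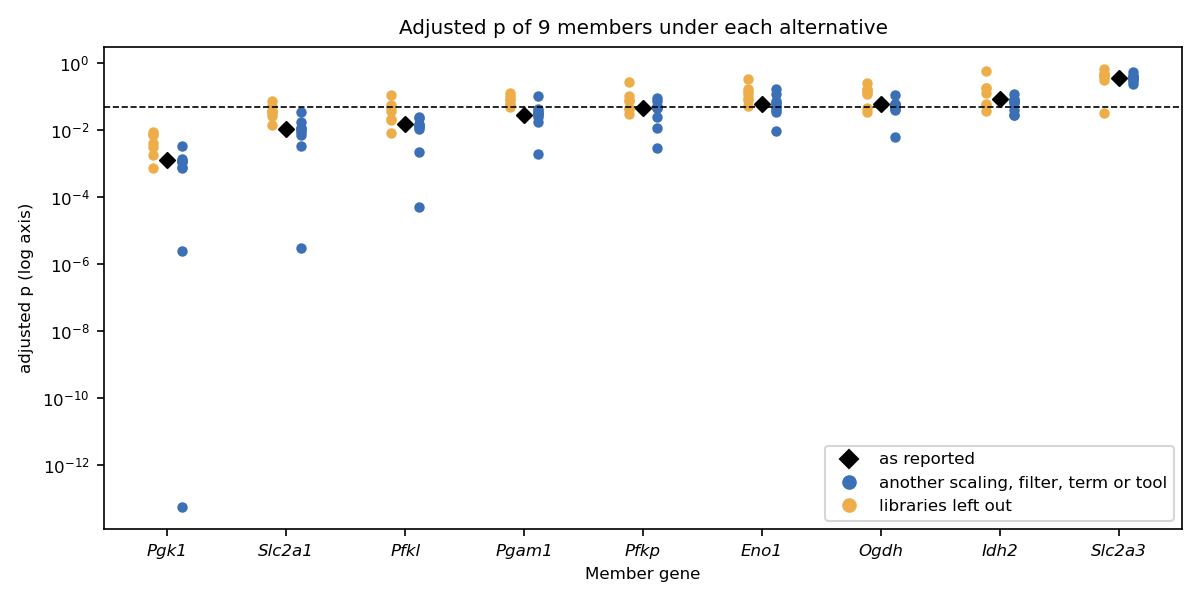
Adjusted p (y axis, log axis) of 9 members as reported (diamonds), with another scaling, filter, model term or tool (blue) and with libraries left out (yellow); the dashed line is 0.05. Pgk1 stays under the line in every case, Slc2a1 and Pfkl in 14 of 16, Pfkp and Pgam1 in 9 of 16.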

How the data were processed

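NK cells of 6 mice (4 WT, 2 KO) were sorted, and cDNA was made with the SMART-Seq v4 kit and read in pairs, per the labels' protocols. The authors deposited raw counts per gene, made with featureCounts on mm10 per the submitters' processing notes, beside each gene's length (a deposited column in bases, used only for values per kilobase). Which aligner and annotation were used, and how reads with several matches were treated, is not given in the sources used here. Symbols came from RefSeq by EntrezID for 25275 of 26332 genes; the other 1057 held 0.623% of counts. Counts hold no molecular identifiers. The limit that a count of 0 allows (3 counts, or 0.0963 to 0.183 CPM) covers counting error only. Each library is an individual mouse, so the SEs and p-values of the fits include the spread between mice.

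edgeR 4.0.16 in R 4.3.3 (TMM scaling, filterByExpr, quasi-likelihood test, sex and genotype as terms, all 6 libraries) tested 13652 genes, with Benjamini-Hochberg adjustment and a threshold of 0.05. The SE is the log2 fold change divided by the root of the F statistic, and the 95% interval is approximate. The model script was tested on simulated data. Alternatives were other scalings, filters, no sex term, a replicate block, DESeq2 1.42.0, limma voom 3.58.1 and libraries left out; adding the counts of copies was chosen after seeing the data. Words and copies came from GENCODE vM21 transcripts, promoters from RefSeq. Every member may be named; full statistics go to called members and to the highest per length and the largest fold change of each group, and in the wider list to called genes. Members, wider list and marker lists were chosen with earlier results of these data known.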

Additional observations from a re-analysis of the deposited data

Results flagged for a closer look

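Among 47 values examined (member levels, isozyme shares and pathway shares) over the 4 WT libraries, 4 had a library far from the other WT libraries by Dixon's test, and chance flags about 1 in 20 such groups. Tkt was high in WT 4 (313 CPM, against 277 to 280 in the other WT libraries). Fh1 was low in WT 3 (45.5 CPM, against 57.2 to 58.0). Mdh1 was also low in WT 3 (205 CPM, against 215 to 218). The Pfkl share of phosphofructokinase counts was low in WT 1 (22.4%, against 24.0 to 24.3%). WT 3 and WT 4 are the libraries with the highest immediate early gene counts, and the part of that in these values was not tested.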

How the results depend on the processing

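Pgk1, Pygl and Foxo1 were called under all 16 alternatives, and Slc2a1 and Pfkl under 14. Without a filter, with DESeq2 and with limma voom, 8 members were called (2 higher, 6 lower) against 5 as reported. DESeq2 called 10 wider list genes against 6, and 2955 genes in all against 1872. Wider list counts under the alternatives, and the 6 they are set against, include the 16 regulators, Foxo1 among them. Leaving out 1 library gave 2 to 6 called members (2 without WT 3 or KO 2, 3 without WT 1 or WT 2), 2 to 6 wider list genes (2 without WT 1, WT 2 or WT 3) and 934 to 1908 genes in all (934 without KO 2, 1002 without WT 1, 1015 without KO 1, 1022 without WT 3). Over 39 genes, 548 of 627 values under an alternative kept direction and side of the threshold, 47 lost the call, 15 gained it and 17 turned direction. No called gene was among those that turned. The cause was not tested.

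Directions turned with library-size scaling for Ldha (0.06), Rpia (0.03) and Mdh1 (0.01), and with the stricter filter of 5 CPM for Ldha (0.00). With single libraries left out, the fold change ranged from -0.74 to 0.11 for Slc2a3 (above 0 without KO 2), -0.07 to 0.55 for Hk2 (below 0 without WT 2, and -0.02 without KO 2), -0.66 to 0.23 for Pfkm (above 0 without KO 1), -0.18 to 0.11 for Ldha (above 0 without KO 2, and 0.04 without WT 4), -0.19 to 0.06 for Rpia, -0.59 to 0.03 for Idh1 (both above 0 without KO 1) and -0.25 to 0.02 for Cs (above 0 without KO 2). For Idh3a it reached -0.09 without KO 1, -0.03 without WT 3 and 0.11 without KO 2, and it was -0.04 without WT 3 and WT 4. With TMM-scaled library sizes, the share of counts, KO minus WT, was -0.0516 percentage points for all members (-0.0266 as reported), -0.0269 for glycolysis, -0.00665 for pentose phosphate, -0.00276 for pyruvate dehydrogenase and -0.0111 for TCA cycle genes.

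With the replicate number as a block, 4 members (1 higher, 3 lower), 4 wider list genes and 1341 genes in all (9.82%) were called. Pgam1 (adjusted p = 0.103), Pdk1 (0.163), Pdk2 (0.0721) and Acly (0.0661) were not called under the block, and Idh3a turned to -0.05. The labels tie no replicate number to a litter or day, so the samples were taken to share only a number. Deviations of same-numbered libraries correlated at 0.132 and -0.0478, but with 2 KO libraries the deviations mirror each other, so these values cannot settle whether the numbers pair the samples.

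With 2 KO libraries that often disagreed, small differences could not be resolved. Where 1 KO library was left out, the other was assumed to vary like WT.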

Other observations

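Regulators of these pathways were listed as 16 genes, of which 15 were tested, 0 rose and 1 fell in KO (6.67% called, against 13.7% of all tested genes). The gene that fell was Foxo1, a transcription factor that insulin and cytokine signals keep out of the nucleus. It had 261, 255, 211 and 318 CPM in WT 1 to WT 4, 121 in KO 1 and 144 in KO 2, without overlap. It fell by 0.98 on the log2 scale (SE 0.14, adjusted p = 0.00493, edgeR) and was called under all 16 alternatives. Hif1a and Myc, the best known activators of glycolytic genes, were not called (log2 fold change -0.19 and -0.29, adjusted p = 0.255 and 0.185). For both, the KO libraries lay below all WT libraries. So did those of Ppargc1a, at 1.98 to 4.70 CPM in WT, 0.406 in KO 1 and 1.34 in KO 2 (-2.05, adjusted p = 0.0791, edgeR, not called). Of the 15 tested regulators, 6 had both KO libraries below all WT and 1 above, against 18.8% and 20.5% of all tested genes. Txnip, which limits glucose uptake, was not called either (0.09, adjusted p = 0.695).

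Of 24 members with under 10% of their words shared with other genes, 0 rose and 2 fell, with a median log2 fold change of -0.13. Of the 9 with more, 1 rose and 2 fell, with a median of -0.25. The shares called were 8.33% and 33.3%, and over all tested genes 13.7% were called, 8.13% higher and 5.58% lower. The difference between these shares was not tested.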
